A study of Mus musculus with 6 samples.

Results

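The genes described here encode the complement and blood clotting proteins of plasma. They are 39 named genes, from the C1q chains that start the classical complement pathway to plasminogen, the precursor of the clot-dissolving protease, and each was found in the deposited count table by matching its symbol to an Ensembl gene ID. All 39 matched 1 ID each, out of 55416 IDs in the table. Of the 39, 38 passed the filter on low counts that left 17083 genes for testing, and Cfd did not. RNA came from whole liver of male mice in 6 libraries, 3 per genotype, all carrying floxed Ephb2, the gene of a receptor tyrosine kinase. WT libraries came from Ephb2flox/flox (Cre-) animals and KO libraries from Ephb2flox/flox-PdgfrbCreERT2 (cre+) animals, in which tamoxifen switches on Cre where the Pdgfrb promoter is active, in stellate and other mesenchymal cells. Both genotypes received tamoxifen for 5 days at 8 to 10 weeks of age, and then 8 weeks of a choline-deficient high-fat diet (CDAA, 45% of calories as fat, 0.1% methionine, 1% cholesterol) that produces steatohepatitis and fibrosis. No group had Cre without floxed Ephb2. The driver is not aimed at hepatocytes, the source of most of these plasma proteins, nor at macrophages. The comparison asks how the transcript levels of complement and clotting genes in this diseased liver differ with the deletion.

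Complement is a cascade of plasma proteases that tags particles for uptake and punctures membranes. It starts from antibody or dying cells bound by C1q, from sugars bound by mannose-binding lectins, or from spontaneous turnover of C3, and all routes meet at the cleavage of C3. Clotting is a second cascade of plasma proteases that ends in thrombin, and antithrombin, protein C and the plasmin system hold it in check. Hepatocytes secrete most of these proteins, and interleukin-6 and related cytokines raise some of them in the acute phase response, whereas C1q comes mainly from macrophages.

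The sequences upstream of the transcription start are shown for 6 genes on which the results turn. They are C1qb for the macrophage-derived chains, C3 for the most abundant member, Hc for the terminal pathway, F5 for the only tested member whose genotypes did not overlap, and F11 with its neighbour Klkb1, the only tested members with a log2 fold change above 0. The letters are the 250 bases before the RefSeq start on GRCm38.p6, written 5′ to 3′, and capitals mark a match to one of the motifs named below.
C1qb (chr4:136886201-136886450, minus strand): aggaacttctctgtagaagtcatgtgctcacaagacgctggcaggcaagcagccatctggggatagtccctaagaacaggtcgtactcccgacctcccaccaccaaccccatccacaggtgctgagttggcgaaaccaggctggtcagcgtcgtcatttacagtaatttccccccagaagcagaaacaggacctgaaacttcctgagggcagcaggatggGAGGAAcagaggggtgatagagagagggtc
C3 (chr17:57228137-57228386, minus strand): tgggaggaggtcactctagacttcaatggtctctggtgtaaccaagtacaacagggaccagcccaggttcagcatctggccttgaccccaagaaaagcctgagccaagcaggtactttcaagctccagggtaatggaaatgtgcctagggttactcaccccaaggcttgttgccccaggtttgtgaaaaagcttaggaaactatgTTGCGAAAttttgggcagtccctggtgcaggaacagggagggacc
Hc (chr2:35061413-35061662, minus strand): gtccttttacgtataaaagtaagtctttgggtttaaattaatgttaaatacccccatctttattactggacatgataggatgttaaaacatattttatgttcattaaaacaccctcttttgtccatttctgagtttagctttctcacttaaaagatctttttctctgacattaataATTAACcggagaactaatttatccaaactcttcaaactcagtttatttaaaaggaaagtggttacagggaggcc
F5 (chr1:164151585-164151834, plus strand): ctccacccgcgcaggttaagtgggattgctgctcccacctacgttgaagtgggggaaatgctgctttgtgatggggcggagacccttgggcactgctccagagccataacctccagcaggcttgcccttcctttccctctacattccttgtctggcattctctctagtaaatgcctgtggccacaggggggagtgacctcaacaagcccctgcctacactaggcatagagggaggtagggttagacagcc
F11 (chr8:45262032-45262281, minus strand): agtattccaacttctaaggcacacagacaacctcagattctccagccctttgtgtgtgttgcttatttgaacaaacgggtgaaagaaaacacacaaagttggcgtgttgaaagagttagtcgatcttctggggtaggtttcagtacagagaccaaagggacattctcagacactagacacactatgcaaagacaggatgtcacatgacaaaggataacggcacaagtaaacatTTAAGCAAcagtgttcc
Klkb1 (chr8:45294836-45295085, minus strand): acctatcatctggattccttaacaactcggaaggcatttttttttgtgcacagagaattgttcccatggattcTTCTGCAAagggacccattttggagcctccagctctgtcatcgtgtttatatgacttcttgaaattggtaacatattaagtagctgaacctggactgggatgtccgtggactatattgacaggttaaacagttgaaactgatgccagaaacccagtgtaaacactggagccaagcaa
The RefSeq table held 29 of the 39 members. Both strands of the 250 bases were searched for TTGCNNAA (C/EBP), GTTAAT (one arm of an HNF1 site), CAAAGTCCA (HNF4), TTCNNNGAA (STAT), GGGA and TTTCC with any 1 base between (NF-kB) and GAGGAA (PU.1). Matches of different motifs may overlap. The C/EBP letters were in 6 of 29 members (C1s1, C3, C9, F9, F11 and Klkb1, 20.7%) against 9.55% of the promoters of 27025 genes. The HNF1 arm was in 6 of 29 as well (C1ra, Hc, C8a, C8b, Vtn and F13b), against 6.52% of all promoters. STAT letters were in 4 of 29 (13.8%) against 7.18%, and neither the HNF4 nor the NF-kB letters, which 0.381 and 0.337% of all promoters hold, were in any of the 29. The PU.1 letters, found in 23.1% of all promoters, were in C1qb, C1qc and F7. In the sequences above the capitals are thus PU.1 letters in C1qb, C/EBP letters in C3, F11 and Klkb1, and an HNF1 arm in Hc, while F5 held none of the motifs. These matches describe the letters and show no binding.

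Ephb2, the targeted gene, had 9.46, 8.28 and 12.4 CPM (depth-scaled counts, with TMM) among WT livers against 6.01, 8.87 and 6.95 among KO livers, here and below in the order of replicates 1, 2 and 3. The genotypes overlapped. The log2 fold change, KO minus WT throughout, was -0.46 (SE 0.21, edgeR adjusted p = 0.850), and an exact two-sided permutation test gave p = 0.2, where 3 against 3 samples allow no p below 0.1. Whole liver holds many cells that keep the gene, so this checks the labels weakly. Total counts ran from 21160690 to 26339251 per library. Nothing in the labels says how the replicates relate beyond their numbers, so the spread behind each p-value may be partly technical.

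Together the 39 genes took 2.62 to 3.91% of the counts in WT libraries and 2.66 to 3.85% in KO libraries. Compared per kilobase of exon, C3, the protein on which all complement routes meet, stood far above the others with a mean of 3088 CPM per kb over the 6 libraries. Vtn, the gene of vitronectin, which binds cells to matrix and restrains the terminal complex, followed with 740.3 CPM per kb, and Plg, plasminogen, with 409.7 CPM per kb. C4b, kininogen (Kng1) and the C1 inhibitor (Serping1) stood at 385, 365 and 304 CPM per kb. The contact proteases Klkb1 and F11 were the lowest of the members tested, with 11.97 and 16.9 CPM per kb, followed by C2 with 17.6 CPM per kb. Prothrombin (F2) reached 226 CPM per kb and antithrombin (Serpinc1) 114 CPM per kb. The C1q chains, although made by a minority cell type, were at 225.8 (C1qb), 145 (C1qa) and 84.2 (C1qc) CPM per kb.

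**Figure D1:**
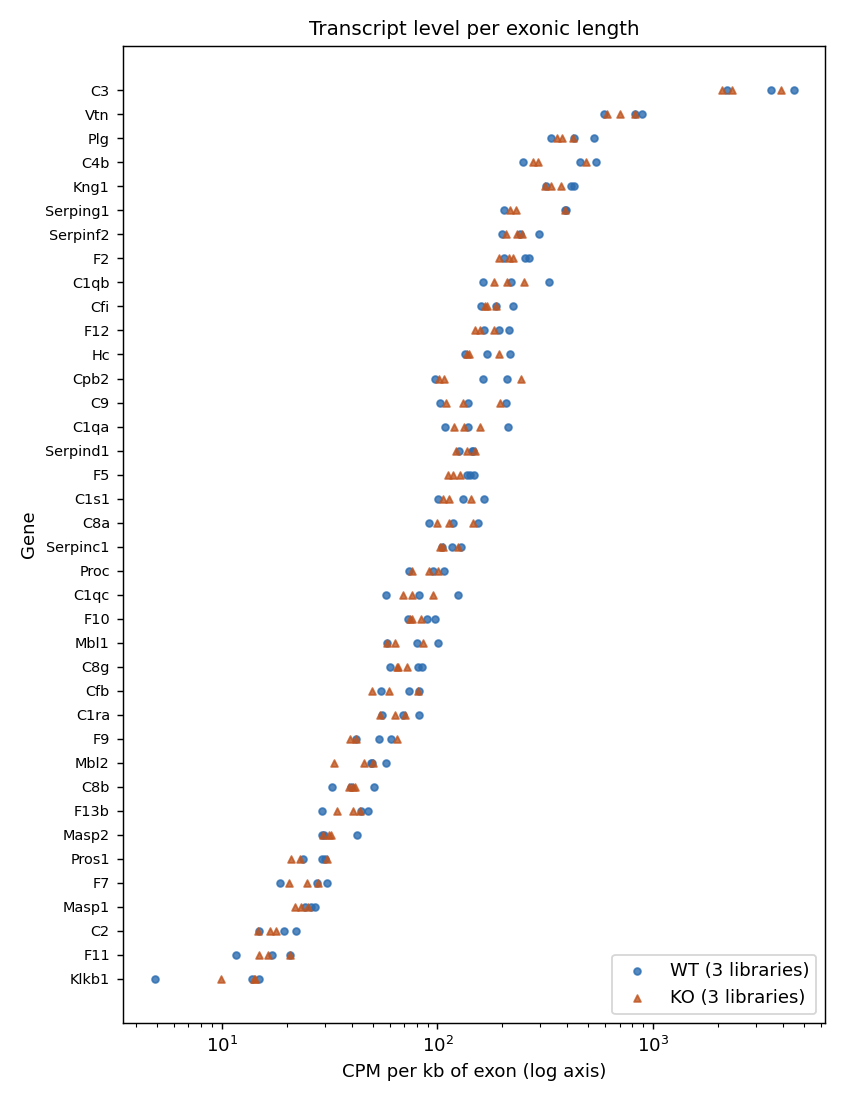
Transcript level of the 38 members tested, in CPM per kb of exon on a log axis, with blue circles for the 3 WT and orange triangles for the 3 KO libraries. C3 lies above every other member in all 6 libraries, Klkb1 has its lowest point in a WT library, and the genotypes are intermingled for all genes but F5.

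None of the complement and clotting genes passed the test for a change between the genotypes. edgeR's quasi-likelihood test with Benjamini-Hochberg adjustment over all genes called 0 of 38 members, with adjusted p from 0.850 to 0.985, and it called 0.0% of the 17083 genes tested. At an unadjusted p under 0.05 it gave 0 of 38 members and 5.19% of all genes. DESeq2 called 0 of 39 members and 7 genes in all (0.0236% of 29606). Limma-voom called 0 members, and gave 1 member, F5, at an unadjusted p under 0.05, among 881 of all 17083 genes. DESeq2 gave 2 at that threshold, F5 and Cfd, among 837 of all 29606 genes.

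The members lay slightly lower in KO liver as a set. Of the 38, 36 had a log2 fold change below 0, with a median of -0.14, against 51.0% of all genes tested and a median of -0.0048. The other tested members, Klkb1 (0.19) and F11 (0.08), lay above 0. All members were read in the same 6 libraries, so their directions are not separate observations. Leaving out WT replicate 1, the highest library for 26 of the 38 members, put 21 below and 17 above 0 with a median of -0.0079. By library size alone, which moved the median of all genes to 0.075, 27 lay below and 11 above 0 with a median of -0.05.

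The 95% interval of the log2 fold change included 0 for all 38 members and stayed between -1 and 1 for 36 of them. C3, with a lower bound of -1.09, and Klkb1, with an upper bound of 1.03, were the exceptions. In 33 of the 38 the difference between the genotype means was smaller than the pooled SD of the replicates. The genotypes overlapped in every tested member but F5, so 2.63% of the members did not overlap, against 11.1% of all genes tested. By direction, 1 of 38 lay wholly lower in KO liver (4.9% of all genes) and 0 of 38 wholly higher (6.21% of all genes).

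**Figure D2:**
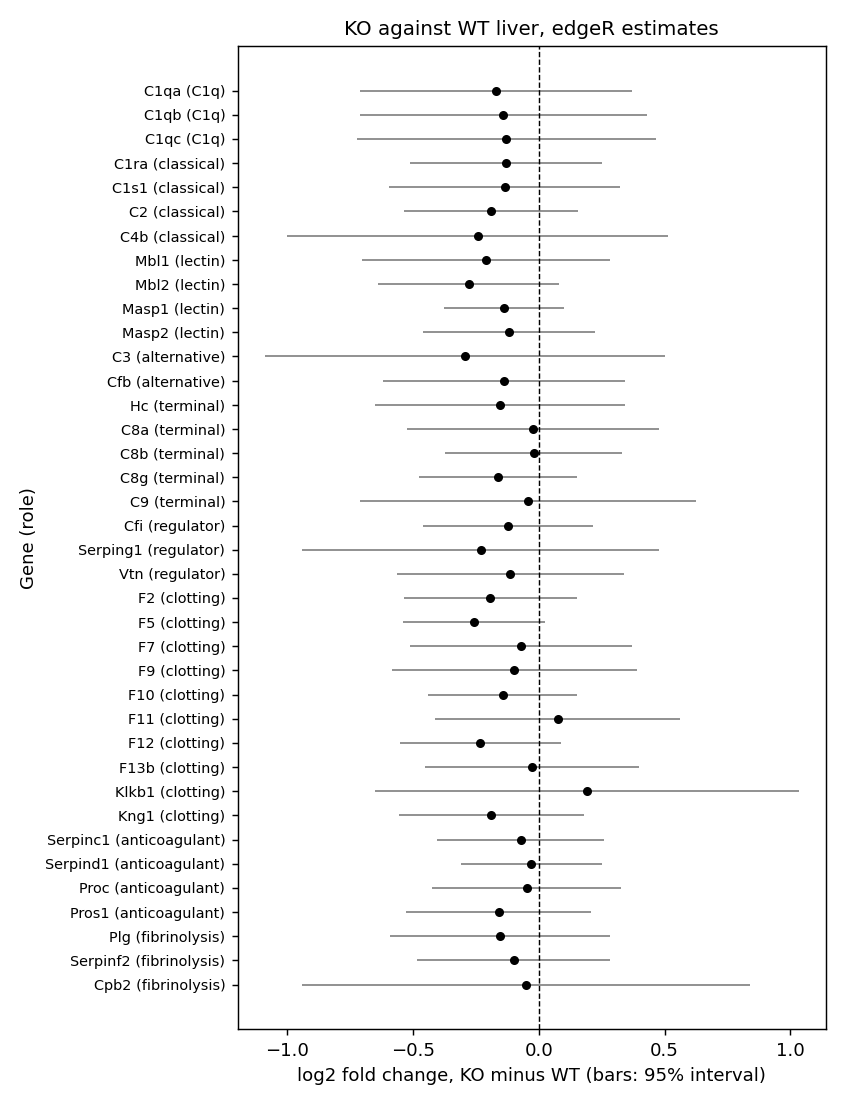
Log2 fold change of each tested member between KO and WT liver, with points for edgeR's estimate and bars for its 95% interval, ordered by role. All 38 bars cross 0, and the points of 36 genes lie left of it.

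The larger differences were those between libraries, not between genotypes. The highest library of a member held 1.59 times the level of its lowest in the median, against 1.28 times among the 7387 genes with a mean of at least 20 CPM, and the ratio ran from 1.23 for Serpind1 to 3.05 for Klkb1. In 25 of the 38 members (65.8%) the 3 highest libraries were WT replicate 1, WT replicate 3 and KO replicate 2, which was so for 10.6% of all genes tested. The highest library was one of these 3 for 35 members (92.1%) and for 55.6% of all genes. The 3 libraries were picked after the values were seen, so these shares describe the pattern and do not test it. Those libraries also held the most RNA of 10 acute phase genes, none of them a member. The summed CPM of these 10 was 12064, 5397 and 15727 for WT livers against 6245, 19868 and 5407 for KO livers. Saa1, serum amyloid A, had 423, 51.6 and 595 CPM among WT livers against 57.3, 1857 and 80.4 among KO livers. Its near-identical copy Saa2 can share its reads. The part of the acute phase in the members' levels was not tested. With the mean log2 CPM of the 10 genes as a covariate, 0 members passed, 30 lay below and 8 above 0, and their median went to -0.08.

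**Figure D3:**
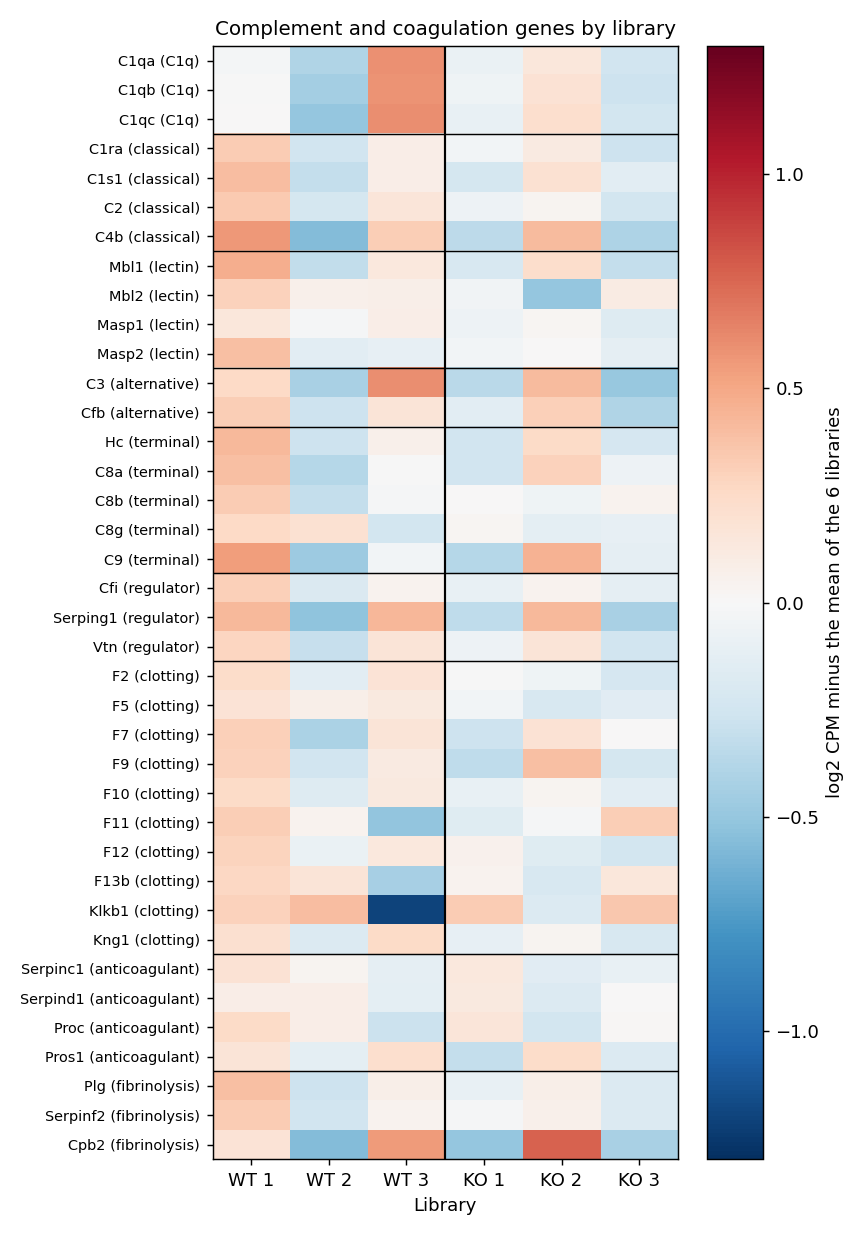
Log2 CPM of the 38 tested members in each library minus the gene's mean over the 6 libraries, with genes in rows ordered by role and libraries in columns. Red cells gather in WT 1, WT 3 and KO 2 for most complement genes, while Klkb1, F11, F13b, Proc and the complement gene C8g have their lowest cell in WT 3.

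C1q is the recognition part of C1, a bundle of collagen-like stalks with globular heads that binds antibody and dying cells, and its A, B and C chains are made together in macrophages. C1qa had 144, 112 and 222 CPM among WT livers against 139, 163 and 124 among KO livers. C1qb had 239, 176 and 358 CPM among WT livers against 230, 273 and 199 among KO livers. C1qc had 158, 112 and 239 CPM among WT livers against 148, 184 and 134 among KO livers. WT replicate 3 was the highest and WT replicate 2 the lowest for each chain, so all KO values lay between the WT extremes. The log2 fold changes were -0.17 (SE 0.23) for C1qa, -0.14 (SE 0.25) for C1qb and -0.13 (SE 0.26) for C1qc, with adjusted p of 0.896, 0.914 and 0.923 by edgeR. Without WT replicate 3 they were 0.14, 0.17 and 0.20, so their sign turned without this library. The 3 genes lie side by side on chromosome 4 of GRCm38, all on the minus strand, from C1qb (136880129) over C1qc to C1qa (136898803), 3.62 and 2.85 kb apart.

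The chains kept their proportions in every library. Per exonic length, C1qb over C1qa was 1.5 to 1.6 and C1qc over C1qa 0.536 to 0.608 over the 6 libraries. Against 9 general macrophage markers, C1qa varied unequally. Its ratio per length to Adgre1, which encodes the F4/80 antigen, ran from 3.82 to 4.14 over the 6 libraries. That to Csf1r, the receptor of the macrophage growth factor CSF1, was 2.75, 2.74 and 3.04 among WT livers against 3.06, 3.17 and 3.12 among KO livers, so every KO library lay above every WT library by a small margin. The highest ratio exceeded the lowest 1.08-fold for Adgre1, 1.16-fold for Csf1r, 1.22-fold for Fcer1g and 1.27-fold for Mpeg1. It did so 1.5-fold for Tyrobp, 1.6-fold for Cd68, 1.67-fold for Lyz2, 2.15-fold for Aif1 and 5.98-fold for Cd14. Against Clec4f, a lectin of resident Kupffer cells, the ratio took the values 3.36, 4.39 and 3.65 among WT livers against 4.87, 6.62 and 12.2 among KO livers. As for Csf1r, the genotypes did not overlap. They overlapped in the ratios of C1qa to Adgre1, Fcer1g, Mpeg1, Tyrobp, Cd68, Lyz2, Aif1 and Cd14. All these ratios were chosen after their values were seen and not tested. Clec4f itself had 102, 60.7 and 144 CPM among WT livers against 67.6, 58.5 and 24.1 among KO livers (log2 fold change -1.03, SE 0.41, edgeR adjusted p = 0.850). All 6 Kupffer markers lay below 0, against 51.0% of all genes tested, with a median log2 fold change of -0.89. All 6 overlapped between the genotypes, and edgeR called 0 of them. Their summed CPM was 363, 279 and 752 among WT livers against 361, 277 and 170 among KO livers. Replicates 1 and 2 thus had nearly equal sums in both genotypes, and the sums differed in replicate 3, high in WT and low in KO. The summed CPM of 9 general macrophage markers ran from 1765 to 2920 in WT and from 1927 to 2496 in KO libraries. In whole liver, fewer cells of a type cannot be told apart from less RNA per cell, and the part of either in the C1q levels was not tested.

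**Figure D4:**
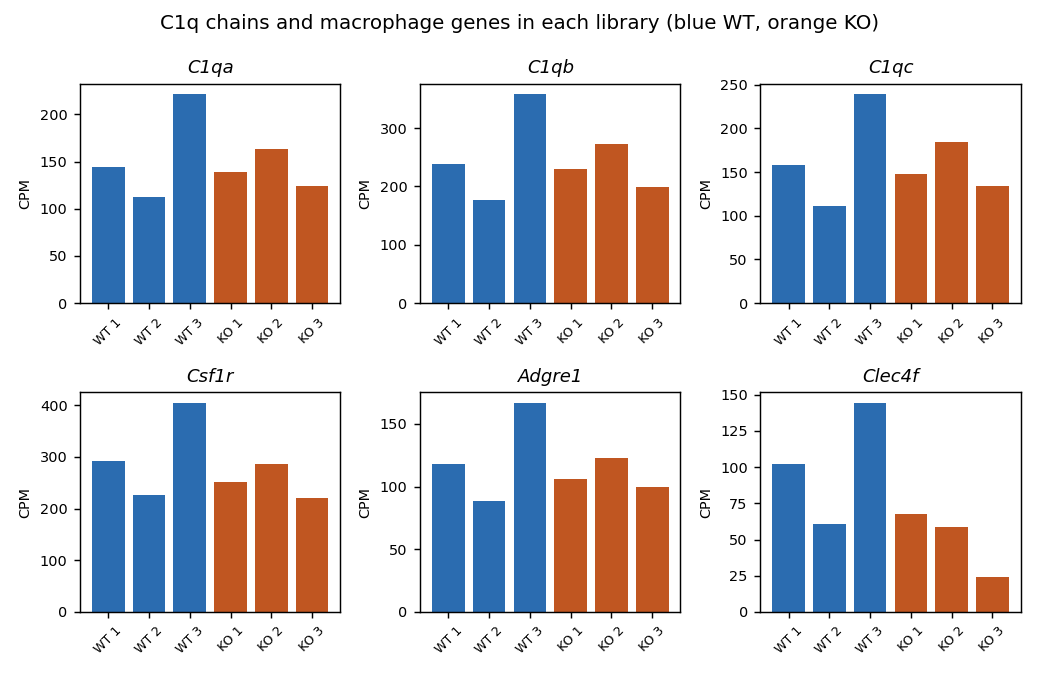
CPM of the C1q chains and of the macrophage genes Csf1r, Adgre1 and Clec4f in each library, with blue bars for WT and orange bars for KO. All 6 genes have their highest bar in WT 3, and Clec4f has its lowest bar, 24.1 CPM, in KO 3.

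The proteases that act with C1q, and their substrates, come from hepatocytes and also from fibroblasts and macrophages. C4b, whose product is cleaved by C1s and becomes part of the C3 convertase, had 3095, 1417 and 2620 CPM among WT livers against 1658, 2785 and 1584 among KO livers. WT replicates 1 and 3 and KO replicate 2 thus held clearly more than the other libraries, across the genotypes. The log2 fold change was -0.24 (SE 0.33, edgeR adjusted p = 0.894), and it went to -0.02 without WT replicate 1 and to -0.55 without KO replicate 2. The near-identical C4a can share its reads. C2, the protease subunit of that convertase, had 85.3, 57.4 and 75.2 CPM among WT livers against 64.6, 69.2 and 57.0 among KO livers (-0.19, SE 0.15, edgeR adjusted p = 0.858). C1ra, the protease C1r, had 245, 164 and 207 CPM among WT livers against 190, 211 and 162 among KO livers (-0.13, SE 0.16). C1s1 ran from 313 to 515 CPM with WT replicate 1 on top. Copies of C1r and C1s (C1rb, C1s2) also exist in the mouse, and C1rb did not pass the count filter. All 4 genes of this group lay below 0, and 2 of them without WT replicate 1.

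In the lectin pathway, Mbl1 and Mbl2 encode mannose-binding lectins, which recognise microbial sugars, and Masp1 and Masp2 the proteases bound to them. Mbl2 had 62.9, 53.5 and 53.9 CPM among WT livers against 49.6, 36.1 and 55.0 among KO livers. KO replicate 2 was low and KO replicate 3 lay within the WT range. The log2 fold change of -0.28 (SE 0.16, edgeR adjusted p = 0.850) went to -0.12 without KO replicate 2. Masp1 varied little, with 266, 238 and 256 CPM among WT livers against 230, 246 and 214 among KO livers (-0.14, SE 0.10, edgeR adjusted p = 0.851). Mbl1 ran from 92.0 to 158 CPM and Masp2 from 96.2 to 139 CPM, both with WT replicate 1 the highest. Mbl1 and Mbl2 stood apart in KO replicate 2, where the ratio of Mbl2 to Mbl1 per length was 0.388 against 0.573 to 0.861 in the other libraries.

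C3 had 18112, 11317 and 23038 CPM among WT livers against 11943, 20119 and 10772 among KO livers. The same 3 libraries as for C4b were the highest, and the genotypes overlapped. The log2 fold change of -0.29 (SE 0.34, edgeR adjusted p = 0.880) was the lowest of the members, and it ran from -0.63 without KO replicate 2 to -0.04 without WT replicate 3. C3 lies on chromosome 17 of GRCm38 at 57203970 to 57228136, with up to 41 exons in a transcript. Cfb, factor B, the protease of the alternative convertase, had 231, 154 and 208 CPM among WT livers against 169, 230 and 141 among KO livers (-0.14, SE 0.21, edgeR adjusted p = 0.906). Cfb and C2 are neighbours on chromosome 17, 85 bases apart on the same strand, and their ratio per length ran from 3.39 to 4.55.

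Cfd, factor D or adipsin, cleaves factor B and is known mainly from fat cells. It had 0, 1 and 0 counts among WT livers against 3, 9 and 4 among KO livers. Every KO library held more than any WT library, which was so for 6.21% of all genes tested, a set that does not include Cfd. The KO libraries had 16 counts against 1 in WT, a rate 14.5 times as high (exact 95% interval 2.25 to 607, which covers counting error only). Counts this low were not tested in the main analysis. Without a count filter edgeR gave it a log2 fold change of 3.43 and an adjusted p of 0.826. Of 6 fat cell markers none passed the count filter. Adipoq, adiponectin, had 0 counts in the WT libraries and 0, 2 and 2 counts in the KO libraries. Plin1, perilipin 1, had 0 counts in WT and 0, 7 and 3 counts in KO libraries. Lep had 0 counts in WT and 0, 4 and 0 counts in KO libraries. Nnat had 3, 5 and 3 counts in WT against 5, 6 and 8 in KO libraries. Retn had 1, 2 and 0 counts in WT against 0, 3 and 0 in KO libraries. Adig went the other way, with 4, 3 and 0 counts in WT against 0, 3 and 0 in KO libraries. The summed CPM of the 6 markers was 0.144 to 0.420 in WT and 0.218 to 0.948 in KO libraries, and the part of fat cells in the Cfd counts was not tested.

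The terminal pathway builds a pore, and its members here are C5 (the gene is named Hc in the mouse), C8 and C9. C6 and C7, also parts of it, are not members. Hc had 1359, 844 and 1063 CPM among WT livers against 856, 1205 and 875 among KO livers, with the highest library in WT and KO replicate 2 next to it. Its log2 fold change of -0.15 (SE 0.21, edgeR adjusted p = 0.896) was 0.03 without WT replicate 1. C8g, the lipocalin-like chain of C8, had 127, 121 and 89.8 CPM among WT livers against 107, 96.6 and 98.1 among KO livers (-0.16, SE 0.14, edgeR adjusted p = 0.858). Its order differed from that of C8a, the chain it is bound to, which ran from 332 to 563 CPM and was high in WT replicate 1 and KO replicate 2. C8a and C8b stood at log2 fold changes of -0.02 each. They are neighbours on chromosome 4, 11.13 kb apart on opposite strands, and their ratio varied 1.52-fold between libraries. C9, which forms the wall of the pore, ran from 264 to 532 CPM (-0.04, SE 0.29). All 5 genes lay below 0 in the main analysis, but 3 of them lay above 0 by library size alone and 4 without WT replicate 1.

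Among the regulators, Serping1 encodes the C1 inhibitor, which blocks C1r, C1s, the MASP proteases, plasma kallikrein and factor XII. It had 905, 471 and 913 CPM among WT livers against 540, 906 and 507 among KO livers. The levels formed a high and a low set of 3 libraries each, and both sets held both genotypes. The log2 fold change was -0.23 (SE 0.31, edgeR adjusted p = 0.893). Cfi, factor I, which degrades C3b and C4b, had 498, 353 and 413 CPM among WT livers against 376, 416 and 369 among KO livers (-0.12, SE 0.15, edgeR adjusted p = 0.880). Vtn ran from 1205 to 1807 CPM, with WT replicate 1 the highest and WT replicate 2 the lowest.

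**Figure D5:**
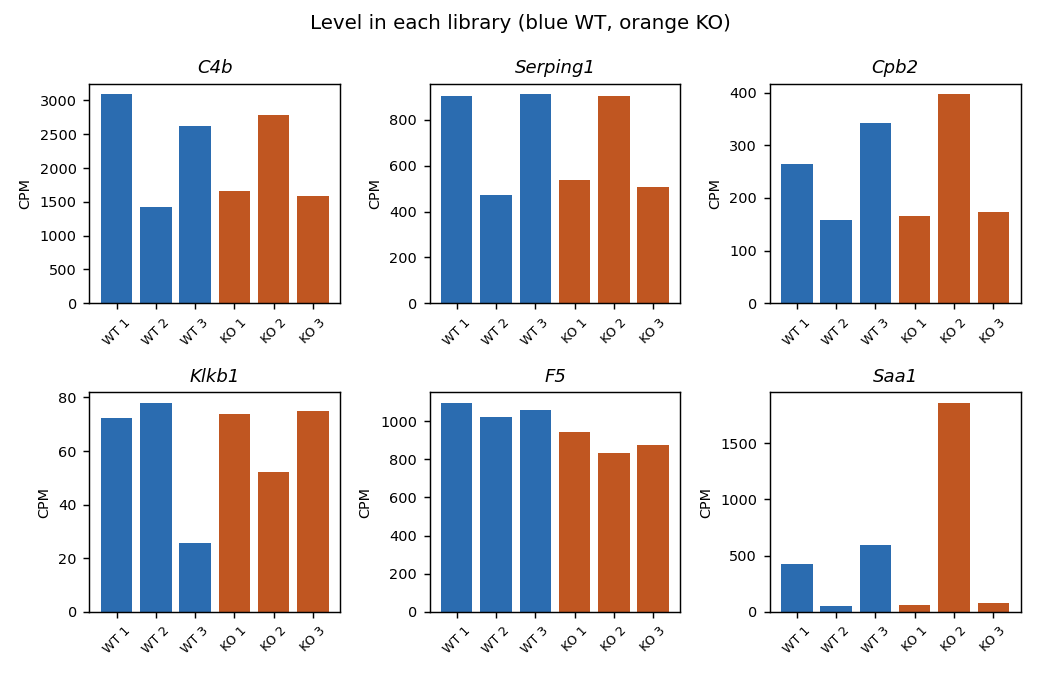
CPM in each library of C4b, Serping1, Cpb2, Klkb1, F5 and the acute phase gene Saa1, with blue bars for WT and orange bars for KO. C4b, Serping1 and Cpb2 are high in the libraries where Saa1 is high, Klkb1 is lowest at 25.6 CPM in WT 3, and F5 has all its KO bars below its WT bars.

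Among the 10 genes of clotting and the contact system, the highest library exceeded the lowest 1.54-fold in the median, close to the 1.59-fold of all members, with a range from 1.31-fold for F5 to 3.05-fold for Klkb1. F5, factor V, the cofactor that speeds thrombin formation, had 1095, 1019 and 1056 CPM among WT livers against 944, 835 and 875 among KO livers. Every KO library was below every WT library, also by library size alone. The log2 fold change was -0.26 (SE 0.12, 95% interval -0.54 to 0.02, unadjusted p = 0.0686), and F5 had the smallest unadjusted p of all members, but its adjusted p by edgeR was 0.850. F12, the protease that starts contact activation, had 421, 323 and 379 CPM among WT livers against 358, 308 and 291 among KO livers (-0.23, SE 0.14, edgeR adjusted p = 0.850). F2, prothrombin, had 1216, 936 and 1170 CPM among WT livers against 1030, 991 and 887.9 among KO livers (-0.19, SE 0.15, edgeR adjusted p = 0.856). For both, the lowest WT library lay among the KO values.

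The vitamin K-dependent factors VII, IX and X lay closer to 0. F7, the protease that binds tissue factor, ran from 34.5 to 57.0 CPM with a log2 fold change of -0.07 (SE 0.19). F9, lost in haemophilia B, ran from 108 to 177 CPM with both ends in KO libraries (-0.10, SE 0.21). F10, which cuts prothrombin, ran from 199 to 266 CPM (-0.14, SE 0.13). F7 and F10 lie 1498 bases apart on chromosome 8 on the same strand, and both were highest in WT replicate 1 and lowest in WT replicate 2. F13b, the carrier subunit of the clot cross-linking factor XIII, ran from 73.8 to 120 CPM and was lowest in WT replicate 3 (-0.03, SE 0.18).

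In the contact system, Klkb1 encodes plasma prekallikrein, F11 the related factor XI, and Kng1 kininogen, which carries both in plasma. Klkb1 had 72.4, 78.0 and 25.6 CPM among WT livers against 73.9, 52.3 and 75.0 among KO livers. It was the only member whose 3 lowest libraries were WT replicates 1 and 3 and KO replicate 2 (2.63% of members, against 9.29% of all genes tested). F11 had 46.5, 38.3 and 26.02 CPM among WT livers against 33.4, 36.8 and 46.6 among KO livers. Both genes were lowest in WT replicate 3, the library with the highest C3, and their log2 fold changes were 0.19 (SE 0.36) and 0.08 (SE 0.21), with edgeR adjusted p of 0.918 and 0.947. They lie 4.66 kb apart on the minus strand of chromosome 8 (45241174 to 45294859 together), and Klkb1 over F11 per length still ran from 0.420 to 0.944. Kng1 ran from 1023 to 1397 CPM with its highest value in WT replicate 3 (-0.19, SE 0.16), and its near-identical copy Kng2 can share its reads.

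The inhibitors of clotting had the smallest spread of the 9 role groups, with a median ratio of highest to lowest library of 1.35 and a range from 1.23 for Serpind1 to 1.46 for Pros1. Serpinc1, antithrombin, which inactivates thrombin and factor Xa, had 1102, 996 and 893 CPM among WT livers against 1063, 877 and 908 among KO livers (-0.07, SE 0.14, edgeR adjusted p = 0.924). Serpind1, heparin cofactor II, had the smallest spread of all members, from 266 to 327 CPM, with both its ends in KO libraries (-0.03, SE 0.12). Proc, protein C, which shuts off factors Va and VIIIa once activated, ran from 184 to 265 CPM and was lowest in WT replicate 3 and KO replicate 2 (-0.05, SE 0.16). Pros1, the gene of its cofactor protein S, was highest in those libraries. It had 119, 97.6 and 124 CPM among WT livers against 85.8, 126 and 93.8 among KO livers (-0.16, SE 0.16, edgeR adjusted p = 0.872). Of this group 4 of 4 lay below 0 in the main analysis and 1 of 4 by library size alone.

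Of the genes of clot dissolution, Plg had 1966, 1251 and 1588 CPM among WT livers against 1406, 1584 and 1327 among KO livers (-0.15, SE 0.19, edgeR adjusted p = 0.882). Serpinf2, the plasmin inhibitor alpha-2-antiplasmin, had 690, 461 and 563 CPM among WT livers against 543, 573 and 483 among KO livers (-0.10, SE 0.17, edgeR adjusted p = 0.911). Protease and inhibitor kept their proportion, with a ratio per length of 1.62 to 1.78. Cpb2, a carboxypeptidase that protects fibrin from plasmin, had 264, 158 and 342 CPM among WT livers against 165, 398 and 174 among KO livers. It was high in the same 3 libraries as C4b, with KO replicate 2 on top, and its genotype means of 255 ± 92.4 and 246 ± 132 CPM (SD, n = 3) nearly met. Its log2 fold change was -0.05 (SE 0.39, edgeR adjusted p = 0.982).

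Other genes of both cascades gave no call. Of 30 further complement genes 28 were tested, 20 lay below 0 and 0 passed edgeR's test, with a median log2 fold change of -0.13. An unadjusted p under 0.05 by edgeR was found for 4 of the 28, against 5.19% of all genes tested. The lowest was Colec10, the collectin CL-L1 of the lectin pathway, made in liver mainly by stellate cells, with 14.2, 10.1 and 25.4 CPM among WT livers against 5.23, 8.11 and 1.56 among KO livers (-1.73, SE 0.54, edgeR adjusted p = 0.850). All its KO values lay below its WT values. It was the 1 gene of the 28 without overlap, against 11.1% of all genes tested. Of 9 stellate cell markers, 5 lay below and 4 above 0, with a median log2 fold change of -0.01, and edgeR called 0. The part of stellate cells in the Colec10 level was not tested. Fcna, a ficolin of macrophages (-1.01, SE 0.36), and Vsig4, the complement receptor CRIg of Kupffer cells (-0.98, SE 0.39), also stood among the 4 smallest unadjusted p. The other was Cr2, complement receptor 2 of B cells (1.58, SE 0.57), with 0.495, 0.714 and 0.430 CPM among WT livers against 2.31, 0.493 and 2.23 among KO livers.

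Of 34 further clotting and fibrinolysis genes 30 were tested, 20 lay below 0 and 0 passed edgeR's test, with a median of -0.07. An unadjusted p under 0.05 by edgeR was found for 2 of the 30, close to the 5.19% of all genes tested. The smallest unadjusted p were those of F3, tissue factor, the trigger of clotting (0.60, SE 0.23), Plaur, the urokinase receptor (-0.31, SE 0.13), Adamts13, the protease of von Willebrand factor made by stellate cells (-0.34, SE 0.16), and Kng2 (-0.34, SE 0.17). All 4 had an edgeR adjusted p of 0.850. F3 had 5.99, 8.61 and 5.17 CPM among WT livers against 9.24, 8.38 and 12.4 among KO livers, and WT replicate 2 lay above KO replicate 2. Plaur and Adamts13 had no overlap, with 10.99 to 14.01 against 9.498 to 10.1 CPM for Plaur. With Mcfd2, 3 of the 30 genes tested did not overlap, against 11.1% of all genes tested. The fibrinogen chains Fga, Fgb and Fgg, acute phase proteins and the substance of the clot, followed the same libraries as C3. Fga had 5303, 2237 and 5383 CPM among WT livers against 2713, 5314 and 2424 among KO livers, and the log2 fold changes were -0.31 (SE 0.41), -0.24 (SE 0.38) and -0.25 (SE 0.38).

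Hepatocyte markers, whose list shares no gene with the members, took 4.72 to 5.68% of the counts of WT and 4.28 to 5.86% of those of KO libraries. The summed CPM of 6 cholangiocyte markers ran from 262 to 380 in WT and from 392 to 509 in KO libraries. Of these, 6 of 6 lay above 0 and 0 were called by edgeR. By edgeR 4 of the 6 had an unadjusted p under 0.05, against 5.19% of all genes tested. The summed CPM of 6 neutrophil markers was 59.2, 28.5 and 111 among WT livers against 33.7, 78.9 and 31.5 among KO livers. It was thus highest in WT replicates 1 and 3 and KO replicate 2. The part of these cells in the members' levels was not tested. Among regulators of these genes, Cebpb, a C/EBP factor that acts in the acute phase, had 196, 145 and 268 CPM among WT livers against 133, 120 and 117 among KO livers (log2 fold change -0.72, SE 0.20, edgeR adjusted p = 0.850). Il6ra, the interleukin-6 receptor, had 62.8, 62.7 and 80.2 CPM among WT livers against 49.6, 54.2 and 43.4 among KO livers (-0.48, SE 0.13, edgeR adjusted p = 0.850). Neither gene overlapped between the genotypes, which was so for 11.1% of all genes tested, and neither passed the test. They were named after their values were seen. In KO replicate 2 both stood below every WT library, while C4b, C3, Serping1 and Saa1 stood high there. That is a single library, and the part of either gene in the members' levels was not tested.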

How the data were processed

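Whole-liver RNA was sequenced in 3 WT and 3 KO libraries, per the labels' protocols after polyA enrichment with a directional kit. The values are raw read counts by Ensembl gene, 1 column for each sample, as the authors deposited them. Tools listed in the submitters' processing notes, with no roles, were STAR 2.7.6a, featureCounts 1.6.3 and DESeq2 1.30.0. The same notes list GRCm38 and mm10. Which annotation release and strand setting were used is not given in the sources used here, so overlapping genes and near-identical copies can share reads.

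Symbols, coordinates and exonic lengths came from GENCODE M21 (GRCm38), which held 52135 of 55416 IDs (94.08%), and promoters from RefSeq (GRCm38.p6). The authors may have counted with another release. The main test was edgeR 4.0.16 in R 4.3.3 (glmQLFit and glmQLFTest, TMM, filterByExpr with a minimum count of 10 and total of 15, genotype as the sole term, Benjamini-Hochberg at 0.05), which was also run on simulated data with known changes. CPM are scaled by TMM, and intervals are 95% intervals. Alternatives were other scalings, other count filters, DESeq2 1.42.0, limma-voom 3.58.1, a robust fit, the replicate number as a block, an acute phase covariate, leaving out each library or the 20 most abundant genes, and an adjusted p under 0.1.

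The members and lists were chosen with earlier results of these data known. The rule gave library values for the 2 members of each role with the smallest p and for 9 set members, and named the 4 other genes with the smallest p per list. Clec4f, Cebpb, Il6ra, Fga, Cfd's fat cell markers, Cpb2, Klkb1, F11, other members with library values and the ratios were picked after their values were seen.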

Additional observations from a re-analysis of the deposited data

How the results depend on the processing

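No alternative called a member or another gene of both cascades. The count of all genes called by edgeR, 0 in the main analysis, was 3 without a count filter. It was 0 to 2 with a library left out (2 without WT replicate 3). DESeq2, by its own test, called 7 genes. At an adjusted p under 0.1 the main edgeR analysis still called 0. The median log2 fold change of the members was -0.14 and ran from -0.27 without WT replicate 2 to -0.0079 without WT replicate 1. Of 29 named genes, 19 kept their sign under every one of the 17 settings that gave them a value. C3 had none without the 20 most abundant genes, which include it, and Cr2 none with a CPM of at least 1 in 3 libraries. Serpinc1 turned to 0.01 by library size alone and C1qc to 0.0049 with the acute phase covariate. With a library left out, log2 fold changes that turned sign ran from -0.37 to 0.14 for C1qa, -0.35 to 0.17 for C1qb, -0.36 to 0.20 for C1qc, -0.27 to 0.0088 for C1ra, -0.35 to 0.012 for Cfb, -0.24 to 0.0078 for Cfi, -0.33 to 0.0302 for Hc, -0.31 to 0.012 for Plg, -0.16 to 0.0008 for Serpinc1 and -0.23 to 0.0509 for Serpinf2. The cause was not tested. The replicate numbers are shared between the genotypes, but same-numbered libraries deviated from their group means with correlations of -0.0262, -0.438 and -0.313. The differences between libraries across all genes enter these values, which thus cannot settle whether the samples were paired. With the replicate number as a block, 0 genes and 0 members passed, 35 of 38 members lay below 0, their median was -0.12 and Ephb2 was at -0.46. With 3 libraries per group, the log2 fold changes of the members had a median SE of 0.187, which limits what can be seen.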
